A study of Mus musculus with 11 samples.

Results

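The data described here are the transcript levels of 8 genes of regulated secretion in mouse T cell acute lymphoblastic leukaemia (T-ALL) with and without Utx: the synaptotagmin-like genes Sytl1, Sytl2, Sytl3, Sytl4 and Sytl5, the small GTPase genes Rab27a and Rab27b, and Unc13d. They were taken by symbol from 37224 gene rows, and all 8 were found. The set was chosen by the knockout to wild-type ratio of Sytl2, which was far higher in the knockout pool. Every knockout to wild-type value below is therefore a description, and none supports another. Of the 8 genes, 6 had at least 100 counts over both pools, 1 (Sytl4) had 94 and 1 (Sytl5) had 2.

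The leukaemias came from C57/BL6 progenitors positive for cKit, transduced in culture with a retrovirus that expresses the activated intracellular form of Notch1 (Notch1-IC) and transplanted intravenously into mice. The knockout group (Utx-/Y, 5 samples) held 2 bone marrow and 3 spleen samples. The wild-type group (Utx+/+ or Utx+/Y, 6 samples) held 2 bone marrow and 4 spleen samples. Repeat runs were 1 of the knockout and 2 of the wild-type samples. Notch1-IC was common to both groups, all knockout donors were male and wild-type donors were of either sex, so that genotype and sex cannot be told apart here. The values are 1 pooled read count per gene and genotype, 106445530 counts for the knockout and 108015222 for the wild-type pool. Pooled counts carry no spread between animals, so every difference lacks a replicate check, and it is unknown how many tumours of a pool expressed a given gene. Levels are CPM, the counts scaled to a pool total of 1000000, and the intervals are exact 95% intervals that cover counting error only. Kdm6a, the gene of Utx, was at 10.5 CPM in the knockout and 58.3 in the wild-type pool, for a log2 ratio of -2.48.

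Rab27 GTPases sit on the membrane of secretory granules and lysosome-related organelles, and in their GTP-bound state they recruit effector proteins. Sytl proteins (also called Slp) are such effectors: an N-terminal domain binds Rab27, and a pair of C2 domains near the C terminus binds the plasma membrane, so that they tether granules before fusion. Unc13d encodes Munc13-4, a Rab27 effector that primes granules for fusion. In cytotoxic lymphocytes this machinery releases perforin and granzymes, and loss of RAB27A or UNC13D in people causes immune disorders with failed granule release.

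Sytl2 stood apart from the other genes of its family. Sytl2 (ENSMUSG00000030616, chromosome 7, 90302252 to 90410719 plus strand; all gene coordinates are those of GENCODE M21 on GRCm38) encodes Slp2-a, a tether known from cytotoxic T cells and epithelia. It had 4317 counts in the knockout and 27 in the wild-type pool, which is 40.6 CPM (95% interval 39.4 to 41.8) against 0.25 CPM (0.16 to 0.36). The log2 ratio was 7.32 (6.80 to 7.95), or 159-fold. Among all 13833 genes with at least 100 combined counts it ranked 23rd from the highest ratio. This ratio is the value that chose the gene set.

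Sytl3 and Sytl1 were lower in the knockout pool. Sytl3 (ENSMUSG00000041831, chromosome 17, 6659093 to 6738044, plus strand) encodes Slp3, known to link Rab27a-bearing lytic granules to a kinesin motor. It had 4631 counts in the knockout and 10763 in the wild-type pool, which is 43.5 against 99.6 CPM, for a log2 ratio of -1.20 (-1.25 to -1.15). It had the most counts of the Sytl genes in either pool. The last exon of Sytl3 shares 4 bases with that of Ezr, an abundant gene on the other strand at 524 against 709 CPM (log2 ratio -0.44), and whether counting used the strand was not given in the sources used here. Sytl1 (ENSMUSG00000028860, chromosome 4, 133253090 to 133263113, minus strand), which encodes Slp1, had 322 against 827 counts. This was 3.03 against 7.66 CPM, for a log2 ratio of -1.34 (-1.53 to -1.15).

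Both X-linked members were at the edge of detection. Sytl4 (ENSMUSG00000031255, chromosome X, 133936385 to 133981812), which encodes granuphilin of endocrine cells, was counted 49 times in the knockout and 45 times in the wild-type pool, for a log2 ratio of 0.14 (-0.47 to 0.76). A difference was not detectable at this depth. Sytl5 (ENSMUSG00000054453, chromosome X, 9885622 to 9994543) was counted 0 times in the knockout and 2 times in the wild-type pool. A count of 0 there allows up to 3 counts, or 0.0282 CPM, so no fold is given.

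The Rab27 GTPases and Unc13d differed by less than 2-fold. Rab27a (ENSMUSG00000032202, chromosome 9, 73044854 to 73097629, plus strand), the main isoform of cytotoxic lymphocytes, had 2955 counts in the knockout and 5849 in the wild-type pool. Its levels of 27.8 and 54.1 CPM gave a log2 ratio of -0.96 (-1.03 to -0.90), just short of the 2-fold minimum used for calls, while Sytl3 lay just beyond it. An annotated processed pseudogene, Gm27186, shares 149 exonic bases with Rab27a on the same strand. It is not among the gene rows counted, and whether the overlap affected the counts of Rab27a was not tested. Rab27b (ENSMUSG00000024511, chromosome 18, 69979131 to 70141605, minus strand), known from platelets and mast cells, had 213 against 147 counts. It stood at 2.00 against 1.36 CPM, for a log2 ratio of 0.55 (0.25 to 0.87). Unc13d (ENSMUSG00000057948, chromosome 11, 116062095 to 116077961, minus strand) had 3307 against 3089 counts, or 31.1 against 28.6 CPM, for a log2 ratio of 0.12 (0.05 to 0.19). It was the gene with the ratio nearest to 0 among the 6 with enough counts.

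**Figure D1:**
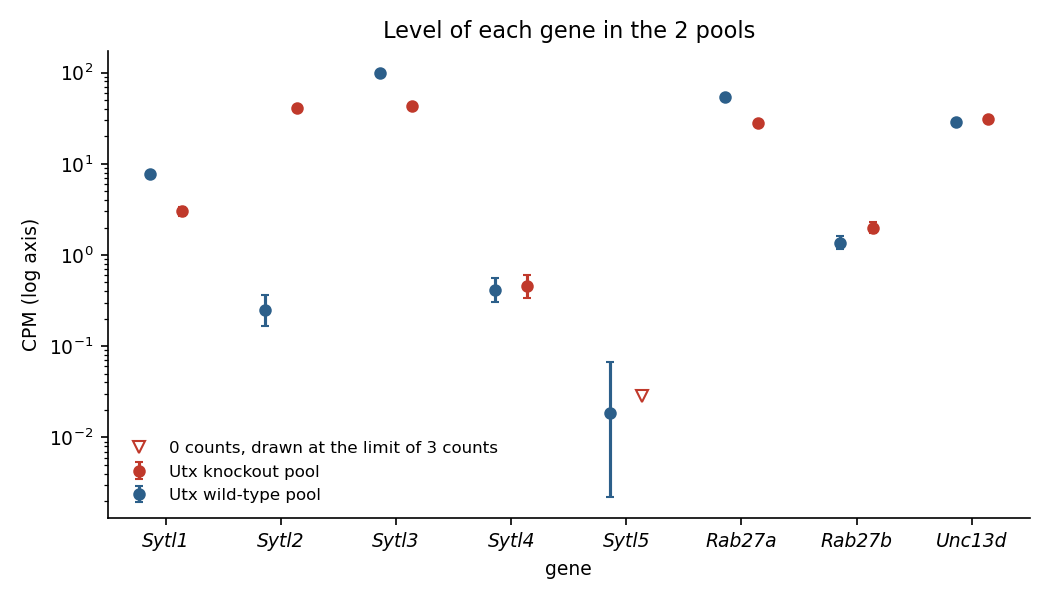
Level of each of the 8 genes (x axis) in CPM on a log axis (y axis), in the wild-type pool (blue) and the knockout pool (red), 1 pooled value each, with exact 95% Poisson intervals for counting error. Sytl2 goes from 0.25 CPM in the wild-type pool to 40.6 in the knockout pool, while Sytl1, Sytl3 and Rab27a are lower in the knockout pool; the open triangle marks a count of 0 for Sytl5, drawn at the limit of 3 counts.

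By the rule for calls (at least 100 combined counts, a 2-fold difference and an interval without 0), 1 of the 6 members with enough counts was higher, Sytl2, and 2 were lower, Sytl1 and Sytl3. Over all 13833 such genes 11.2% were called higher and 5.36% lower. Since the same contrast chose the set, nothing is read from these shares. The median log2 ratio was -0.42 over the 6 members and -0.07 over all 13833 genes. In the authors' deposited table, 6 of the 7 members given a test passed a Benjamini-Hochberg q of 0.05 with no fold minimum, and 67.8% of all genes given a test did so; that DEGseq test compares the pools of reads. The one that missed it was Sytl4, at a q of 0.688.

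**Figure D2:**
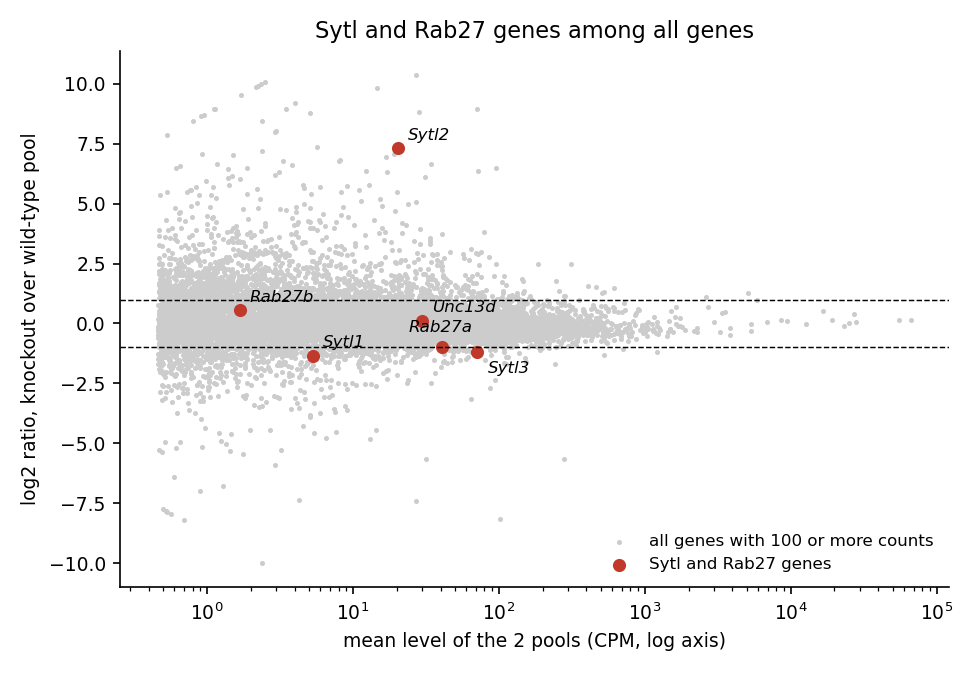
Mean level of the pools in CPM on a log axis (x axis) against the log2 ratio of the knockout over the wild-type pool (y axis), for genes with at least 100 combined counts (grey) and the 6 members among them (red); dashed lines mark a 2-fold difference. Sytl2 lies at 7.32, Sytl1 and Sytl3 lie below the lower line at -1.34 and -1.20, and Rab27a lies just above it at -0.96.

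The make-up of the family differed between the pools through Sytl2, the gene whose ratio chose the set. The 5 Sytl genes together had 9319 counts in the knockout and 11664 in the wild-type pool, 87.5 against 108 CPM, for a log2 ratio of -0.30 (-0.34 to -0.26). Without Sytl2 the sum was 47.0 against 108 CPM, for a log2 ratio of -1.20 (-1.25 to -1.15). Sytl2 gave 46.3% of the family's counts in the knockout (exact Clopper-Pearson interval 45.3 to 47.3) and 0.231% in the wild-type pool (0.153 to 0.337). Sytl3 gave 49.7% in the knockout and 92.3% in the wild-type pool, and Sytl1 gave 3.46% and 7.09%. Among the counts of the other 4 genes, Sytl3 made up 92.6% in the knockout (91.8 to 93.3) and 92.5% in the wild-type pool (92.00 to 92.96), and Sytl1 6.44% and 7.11%. The share of Sytl3 without Sytl2 was thus close in both pools, and that of Sytl4 was 0.98% and 0.387%.

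Long transcripts give more reads, so levels of different genes were also compared per kilobase of annotated exon. On this scale Sytl3 was the highest of the 8 genes in both pools, at 8.59 CPM per kilobase in the knockout and 19.7 in the wild-type pool. Rab27a followed at 7.16 and 13.96, and Unc13d at 6.64 and 6.11. In the knockout pool the counting intervals of Rab27a (6.90 to 7.42) and Unc13d (6.42 to 6.87) lay close together without overlap. Sytl2 came next there at 2.91 CPM per kilobase, above Sytl1 at 1.20, Rab27b at 0.187 and Sytl4 at 0.0898. In the wild-type pool Sytl1 (3.04), Rab27b (0.127) and Sytl4 (0.0813) all stood above Sytl2 at 0.0179. The wild-type intervals of Sytl2 (0.0118 to 0.0261) and Sytl5 (0.000975 to 0.0291) overlapped, and so did those of Rab27b (0.108 to 0.150) and Sytl4 (0.0593 to 0.109). As a share of the length-scaled Sytl level, Sytl2 made up 22.7% in the knockout and 0.0785% in the wild-type pool. The annotated exons of Sytl2 add up to 13941 bases but its longest transcript has 4348. With the longest transcript as length, Sytl2 stood at 9.33 CPM per kilobase in the knockout pool, above Rab27a at 8.76 and Unc13d at 7.68 and below Sytl3 at 18.0, so its place in the order depends on which transcripts were present, which gene counts do not show. On that length the wild-type level of Sytl2 was 0.0575 against 0.00805 for Sytl5. That of Rab27b was 0.197 against 0.111 for Sytl4. The overlaps of wild-type intervals given above therefore depend on taking all annotated exons as length.

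**Figure D3:**
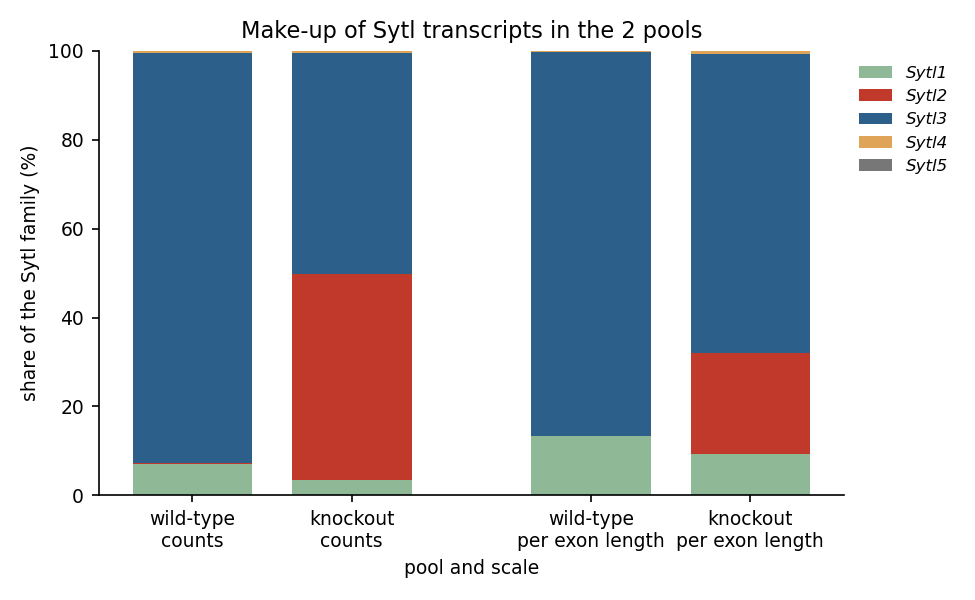
Share of each Sytl gene in the family's total (y axis, percent) in the wild-type and knockout pools (x axis), as counts (left pair of bars) and per length of annotated exon (right pair). Sytl3 is 92.3% of the counts in the wild-type pool, and in the knockout pool Sytl3 is 49.7% and Sytl2 46.3%; per exon length Sytl2 is 22.7% in the knockout pool.

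The Rab27 pair was lower in sum, at 29.8 against 55.5 CPM, for a log2 ratio of -0.90 (-0.96 to -0.84). Rab27a had 13.9 counts for each count of Rab27b in the knockout and 39.8 in the wild-type pool. Rab27b thus made up 6.72% of the pair's counts in the knockout (5.88 to 7.65) and 2.45% in the wild-type pool (2.08 to 2.88).

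Promoter sequences are shown for Sytl1, Sytl3 and Rab27a, to let their start regions be compared. Among members with at least 100 combined counts, these 3 had the lowest ratios. They were also the only such members with an entry, so no such member with a higher ratio could be set beside them. The sequences run from 250 bases before to 50 after the start (RefSeq, GRCm38.p6), 5′ to 3′ on the gene's strand. Capitals mark TGTGGT, the core recognised by RUNX factors of T cells, or its reverse complement.
Sytl1, chr4:133263038-133263337, minus strand: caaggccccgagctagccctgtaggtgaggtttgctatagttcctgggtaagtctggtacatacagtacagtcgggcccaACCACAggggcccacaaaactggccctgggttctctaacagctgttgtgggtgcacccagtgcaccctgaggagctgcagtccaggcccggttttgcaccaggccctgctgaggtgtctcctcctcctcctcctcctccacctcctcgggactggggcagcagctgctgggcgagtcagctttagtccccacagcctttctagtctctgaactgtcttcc
Sytl3, chr17:6658809-6659108, plus strand: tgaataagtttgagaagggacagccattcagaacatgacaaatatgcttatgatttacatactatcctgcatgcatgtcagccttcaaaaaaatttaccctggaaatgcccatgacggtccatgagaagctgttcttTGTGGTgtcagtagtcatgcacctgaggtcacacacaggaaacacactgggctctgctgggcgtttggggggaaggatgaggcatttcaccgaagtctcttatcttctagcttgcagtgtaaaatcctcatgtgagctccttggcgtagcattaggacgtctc
Rab27a, first start, chr9:73044560-73044859, plus strand: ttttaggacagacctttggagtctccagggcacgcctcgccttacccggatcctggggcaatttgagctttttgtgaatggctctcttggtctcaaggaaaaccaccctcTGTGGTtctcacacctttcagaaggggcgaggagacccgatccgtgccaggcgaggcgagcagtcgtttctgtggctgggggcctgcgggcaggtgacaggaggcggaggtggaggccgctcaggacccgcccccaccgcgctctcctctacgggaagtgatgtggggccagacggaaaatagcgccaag
The letters TGTGGT were found once in each of these windows on either strand, and in 16.8% of all 32851 windows of the table. They were not in the window of the second Rab27a start, nor in those of Sytl4 and Sytl5. A link between these letters and level was not tested, and nothing is read from their presence in the printed windows. TGGGAA, the core of RBPJ sites, was in none of the printed windows and in 25.6% of all; it occurred in that of Sytl4. CAGGTG, an E protein site, was in the windows of Sytl3 and of the first Rab27a start and in 20.2% of all. The letters AGATAA, known from sites of erythroid and T cell zinc finger factors, were in that of Sytl3 and in 11.2% of all. CCGGAA, known from ETS sites, was in none of the printed windows and in 14.9% of all. Each motif was searched on both strands. CpG dinucleotides numbered 5 in the Sytl1 window, 5 in the Sytl3 window and 18 in the first Rab27a window, where the median of all windows was 7. Of the 8 genes 5 had an entry in the table. Sytl2, Rab27b and Unc13d had none.

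The protein-coding genes around Sytl2 with at least 100 counts had lower ratios than Sytl2. Since Sytl2 was chosen for its high ratio, this order was likely beforehand and nothing is read from it. The nearest of these upstream, Picalm, a clathrin adaptor gene, was at 285 against 318 CPM, for a log2 ratio of -0.16. The nearest downstream, Crebzf, a bZIP transcription factor gene, was at 28.7 against 17.8 CPM, for a log2 ratio of 0.69. Eed, a subunit gene of the complex that writes the methyl mark Utx removes, starts 321 kb from Sytl2 and was at -0.39. Of the 11 other protein-coding genes that reach within 500 kb of Sytl2, 7 had at least 100 counts, with ratios from -0.39 to 1.86. The 1 called among these 7 was Me3, a malic enzyme gene, at 55.5 against 15.3 CPM, beside 16.6% called in either direction over all 13833 genes. The other 4 genes were under the minimum. Ccdc89, the next gene downstream on the same strand, had 17 counts in the knockout and 0 in the wild-type pool, and Ccdc81, upstream, had 25 and 0, so that the few reads of both lay in the knockout pool. The lower limits of their log2 ratios were 2.07 and 2.67 with no upper limit, which leaves the ratio of Sytl2 within either interval. Dlg2 had 12 against 15 counts, and Ccdc83, the next gene upstream, had 0 in both.

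**Figure D4:**
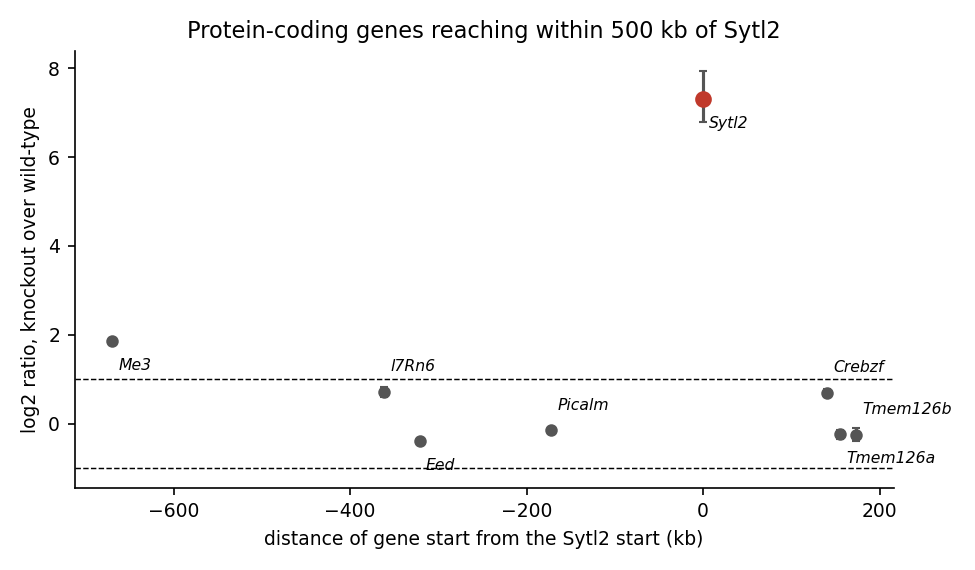
Distance of each gene's start from that of Sytl2 in kilobases (x axis) against the log2 ratio of knockout over wild-type pool with its 95% counting interval (y axis), for protein-coding genes with at least 100 counts that reach within 500 kb of Sytl2; dashed lines mark a 2-fold difference. Sytl2 (red) stands at 7.32, Me3 at 1.86, and the other genes lie between -0.39 and 0.71.

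Around the other members, the nearest measured gene on each side was examined in the same way. Over all 8 members this gave 16 genes, of which 14 had at least 100 counts. Of these, 2 were called, beside 16.6% in either direction over all 13833 genes, so nothing is read from this count. Both of the called genes flank Sytl1. Tmem222, which lies 2.93 kb upstream of Sytl1 on the same strand, was at 41.1 against 94.3 CPM, for a log2 ratio of -1.20. Map3k6, a kinase gene 0.161 kb past the end of Sytl1 on the other strand, was at 4.97 against 1.88 CPM, for a log2 ratio of 1.40. Beside Rab27a, Pigb was at 0.07 on one side, and Gm20509 on the other, with 22 against 62 counts and so under the minimum, was at -1.45 (-2.25 to -0.75). Beside Unc13d, Unk and Wbp2 were at -0.19 and 0.52. Rab27b lay between Ccdc68 at -0.05 and 4930503L19Rik at -0.38.

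Genes with the ratio most like that of Sytl2 were ranked among 8808 named genes with at least 100 counts and a mean of 5 CPM or more. With only 2 pooled values per gene, likeness here means the difference in log2 ratio. Sytl2 ranked 7th. Above it were Meis2 at 7.34, Gabra4 at 8.78 and Serpinb8 at 8.83, and below it Stra6 at 6.94, Moxd1 at 6.79 and H19 at 6.66. The counting intervals of Gabra4 (7.24 to 12.14), Meis2 (6.39 to 8.76), Stra6 (6.44 to 7.55), Moxd1 (6.11 to 7.68) and H19 (6.34 to 7.03) overlapped that of Sytl2 (6.80 to 7.95), and that of Serpinb8 (8.11 to 9.79) lay above it.

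The rest of the pathway was read from 6 lists by role, 119 genes in all, of which 117 were matched and 93 had at least 100 counts. Of these 93, 85 were not called, 7 (7.53%) stood higher and 1 (1.08%) lower, beside 11.2% and 5.36% over all genes. Their median log2 ratio was 0.10, beside -0.07 over all genes.

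Among Rab27 effectors outside the Sytl family, 1 of 4 genes with enough counts was higher, beside 11.2% over all genes. Rph3al, which encodes Noc2, an effector of Rab3 and Rab27 with no C2 domains, had 2233 against 564 counts. It was at 21.0 against 5.22 CPM, for a log2 ratio of 2.01 (1.87 to 2.14). Mlph, whose product joins Rab27a to the motor myosin Va on pigment granules, had 115 against 116 counts, for a log2 ratio of 0.01, and the gene of that motor, Myo5a, was at 0.43. Myo7a was at 0.49. Exph5 had 32 against 64 counts and Myrip 0 against 5, both under the minimum.

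Regulators of the Rab27 and Rab3 cycle and their prenylation enzymes held no called gene with column totals as depth. Of 16 genes 12 had a positive ratio and 4 a negative one, with a median of 0.21. Chml and Chm, which encode the escort proteins that present Rabs for prenylation, were at 0.97 and 0.45. Chml passed 2-fold under TMM scaling, at 1.05. Madd, an exchange factor for Rab3 and Rab27, was at 0.50. Tbc1d10a, which encodes a GTPase-activating protein for Rab27a, was at -0.50 and Rabif at -0.45.

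Of 17 genes of Rab3 and other secretory Rabs with enough counts, 3 (17.6%) were higher and none was lower, with a median of -0.05. Over all genes the shares were 11.2% and 5.36%, and nothing is read from so few calls. Rab3b had 88 against 13 counts, for a log2 ratio of 2.73 (1.93 to 3.75). Rab11fip2, an effector of Rab11 in endosome recycling, was at 79.8 against 30.7 CPM, for a log2 ratio of 1.38. Rab32, which serves lysosome-related organelles, was at 1.10 on 343 against 162 counts. Rab11b and Rab3a were lowest at -0.70 and -0.46.

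The fusion step held no called gene. All 18 matched SNARE and priming genes had at least 100 counts, from -0.51 for Vamp2 to 0.63 for Stx7, with a median of 0.02. Stx11 and Stxbp2, whose loss in people causes failed release of cytotoxic granules as loss of UNC13D does, were at -0.02 and 0.23. Napa was at 0.39. Genes that build lysosome-related organelles held none among 23 with column totals as depth, with a median of 0.01. The largest ratio there was that of Ap3b1, a subunit of the adaptor that sorts cargo to these organelles, at 472 against 239 CPM (log2 ratio 0.98). Ap3b1 passed 2-fold under TMM scaling, at 1.06. Muted was at 0.60. Bloc1s2 was at -0.995, just short of the minimum, Pldn at -0.63 and Lyst, the gene of Chediak-Higashi disease, at 0.02.

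Other genes with C2 domains held the widest range. Of 15 with enough counts 3 (20%) were higher and 1 (6.67%) was lower, with a median of 0.28. Beside the 11.2% and 5.36% over all genes, nothing is read from so few calls. Unc13b, which encodes Munc13-2, a relative of the product of Unc13d, had 616 counts in the knockout and 8 in the wild-type pool, for a log2 ratio of 6.20 (5.30 to 7.51). Wwc1, which encodes the scaffold KIBRA of Hippo signalling, had 6544 against 97 counts, or 61.5 against 0.898 CPM, for a log2 ratio of 6.09 (5.81 to 6.40). Baiap3 was higher at 1.11 on 75 against 35 counts. Syt13 was lower at 39.1 against 85.0 CPM, for a log2 ratio of -1.12 (-1.17 to -1.07), and Doc2a was at -0.46. Beside Unc13b, its relatives Unc13a and Unc13d were at -0.39 and 0.12.

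**Figure D5:**
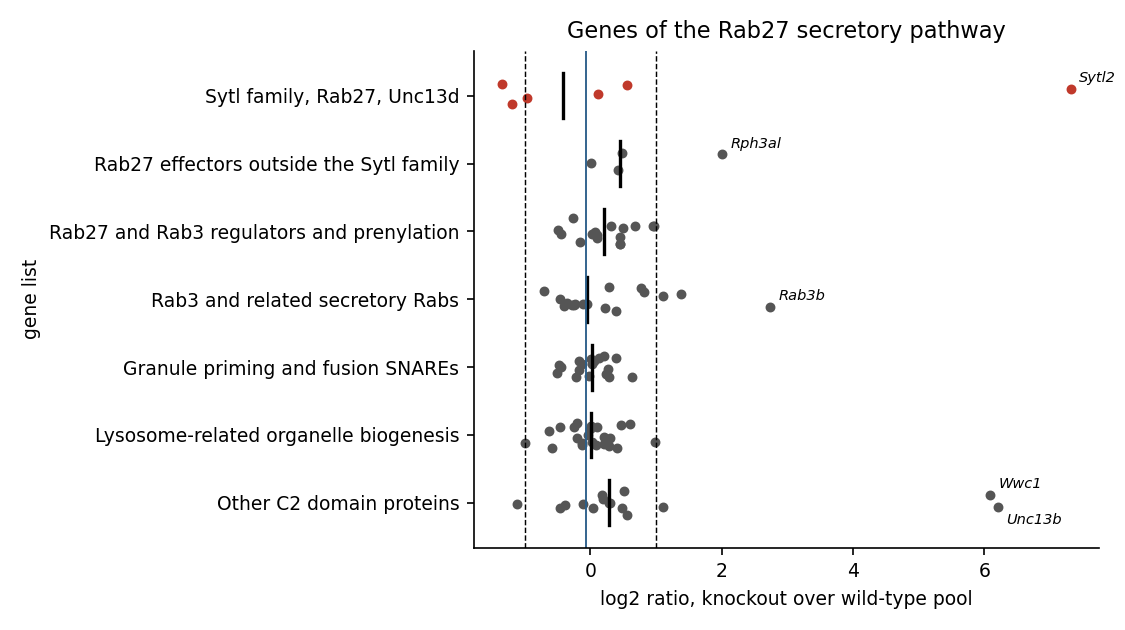
Log2 ratio of the knockout over the wild-type pool (x axis) for genes with at least 100 combined counts in the 8-gene set (red) and the 6 role lists (grey, 1 point a gene), with each list's median (black bar), the median of all genes (blue line) and 2-fold limits (dashed). Sytl2 at 7.32, Unc13b at 6.20 and Wwc1 at 6.09 lie far to the right, and no gene of the regulator, SNARE or organelle lists passes the 2-fold lines with column totals as depth (Chml and Ap3b1 do under TMM).

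Other cell types could carry several of these transcripts, and their markers differed between the pools. The counts of called markers below are to be set beside 11.2% called higher and 5.36% called lower over all 13833 genes. The label gives T cell leukaemia cells, and all 15 T cell genes listed were measured, at a summed 4926 CPM in the knockout and 5819 in the wild-type pool, with a median ratio of -0.28 and 1 lower gene, Thy1. Mast cell and basophil genes had the highest median of 9 marker lists, 3.36, with 6 of 7 higher and a sum of 31.7 against 4.33 CPM. Of these 7, Prss34 had the highest ratio at 4.86 (7.92 against 0.268 CPM), Mcpt8 was at 3.75 and Fcer1a at 3.70. Cpa3, the most abundant in the knockout pool, was at 8.24 against 0.796 CPM, and Hdc, the 1 not called, was at 0.64. Of the other 4 listed, Tpsab1 was at 0 in both pools. Macrophage genes were higher in 11 of 11, at a summed 353 against 118 CPM. Genes of NK and cytotoxic cells were higher in 5 of 7, with Prf1 at 20.7 against 4.29 CPM and Gzmb at 3.23 against 0.731, while Gzma was at -0.29 and the sum was 235 against 247 CPM; Klra8 was at 0 in both pools. Megakaryocyte and platelet genes were higher in 5 of 9 (48.1 against 23.1 CPM), neutrophil genes in 4 of 12 (2575 against 2105 CPM) and erythroid genes in 4 of 11 (25895 against 12977 CPM). Stromal and endothelial genes were higher in 4 and lower in 1 of 10, at 162 against 193 CPM in sum. The lower gene was Pdgfrb, at 31.7 against 88.2 CPM. Of the 10 ratios 8 were positive and 2 negative, with a median of 0.62. Of 6 B cell genes 1 was lower, at 12.1 against 13.8 CPM in sum. The part of these cells in the levels of Sytl2, Rab27b and the other genes was not tested. In bulk samples, fewer cells of a type and less RNA per cell cannot be told apart.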

How the data were processed

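Per the labels' protocols, RNA was selected by its poly(A) tail, libraries kept the strand and single reads had 50 bases, while the series' design text also allows for ribosomal RNA depletion. CASAVA, TopHat and the build mm9 are named in the submitters' processing notes, without versions. What counted the reads, with which annotation and strand, was not given in the sources used here. In all, the authors deposited 1 DEGseq table, with read counts pooled by genotype per the file headers. Column value1 was read as knockout, following the order of the table's title; Kdm6a was then checked. The samples and repeat runs behind each pool are not stated. The authors' log2 fold changes, z score, p-values and q-values in that deposited table come from DEGseq; only the q-values and p-values were used, to count calls. No column held per-sample values (0 columns), so no test across samples was possible.

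CPM used the column totals as depth, and log2 ratios a pseudocount of 0.5 counts in each pool. Ratio intervals were computed from the knockout share of a gene's counts (Clopper-Pearson) and level intervals from the exact Poisson interval (SciPy 1.17.1). They treat reads as independent molecules, which reads without molecular identifiers are not. The call rule was also run on simulated Poisson counts that held no spread between animals. That run cannot show how calls behave across animals. It held no changed genes near the 2-fold limit, so it does not speak for genes that lie there. Exon lengths are unions over GENCODE M21 (GRCm38), matched by Ensembl identifier, and coordinates are from there, not mm9. TMM and upper quartile scaling used edgeR 4.0.16.

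The 8 genes, the lists and the motifs were chosen with earlier results of these data known. Named genes were the 8 members, called list members, up to 2 highest and 2 lowest of each pathway list, genes of granule disease, the 3 nearest ratios on each side of Sytl2 and the nearest measured neighbours. The genes within 500 kb of Sytl2, the further relatives and the low-count genes were added after their values were seen. Lists were matched by Ensembl identifier, then by symbol; Stx4, Vamp7 and Ahsp were not matched. Some genes that the rule for named genes covers are not reported here.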

Additional observations from a re-analysis of the deposited data

How the results depend on the processing

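Scaling moved the median ratio of all genes from -0.07 with column totals to 0.01 with TMM, -0.00044 with the median of ratios, -0.07 with the upper quartile and 0.02 with totals that leave out mitochondrial and erythroid genes. Under TMM, the median of ratios and those reduced totals, Sytl3 was at -1.12, -1.13 and -1.10 and Rab27a at -0.88, -0.90 and -0.87. Unc13d was at 0.20 with TMM and 0.21 with the reduced totals. No sign turned for the 7 genes with a ratio under these scalings or a pseudocount of 5, and Sytl1, Sytl2, Sytl4 and Rab27b moved by less than their counting intervals. With a 4-fold minimum 0 members were lower, and Sytl2 was still the 1 higher. The pathway calls, 7 higher and 1 lower, became 12 and 3 with no count minimum, 11 and 3 with a minimum of 20 counts, 15 and 4 with a 1.5-fold minimum, and 4 and 0 with a 4-fold minimum. These changes follow from the wider or narrower minimum. With TMM, the median of ratios and the reduced totals 10 pathway genes were higher, Chml (1.05, 1.04 and 1.06) and Ap3b1 (1.06, 1.05 and 1.07) among those added. The counts of called members and pathway genes were within 1.5 times of those given under the other scalings, a minimum of 500 counts and the authors' q-values and p-values. With the longest transcript as gene length, an alternative chosen after seeing the data, Sytl2 made up 32.6% of the length-scaled Sytl level in the knockout and 0.13% in the wild-type pool. No paired analysis was possible because the columns hold pools by genotype and carry no replicate number; leaving out samples was not possible for the same reason. Depth limits Sytl4, Sytl5 and the 27 wild-type counts of Sytl2 most.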

Other observations

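Of the genes with C2 domains on the lists above, 9 had at least 20 but under 100 combined counts and so entered no call. Those of Syt12 (7 in the knockout and 14 in the wild-type pool), Syt14 (18 and 20), Syt15 (33 and 42) and Esyt3 (31 and 20) gave counting intervals that included equal levels. The few reads of 4 others lay almost all in one pool. Syt1, the calcium sensor of synaptic vesicles, had 43 counts in the knockout and 1 in the wild-type pool, for a ratio of 43.6 with a counting interval of 7.42 to 1763. Syt9 had 21 against 0 counts, and the exact lower limit of its ratio was 5.28. Syt16 had 31 against 0 counts, with a lower limit of 8.03. Syt3 lay the other way, with 1 against 32 counts. Rims4, an active zone gene, had 6 against 31 counts, for a ratio of 0.196 (0.067 to 0.478). From the organelle list, Nbea, a regulator of membrane traffic related to Lrba and Lyst, had 33 against 4 counts, for a ratio of 8.37 (2.98 to 32.5). These genes were singled out after their values were seen.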
